A study of Mus musculus with 4 samples.

Results

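RFX2 occupancy was examined at the promoters of 8 mouse genes, grouped as genes for shaping the sperm head and joining it to the tail. They were Hook1, Rimbp3, Meig1, Spem1, Lrguk, Ccdc42, Stk36 and Odf2, out of 21938 protein-coding genes in the annotation. The roles given below for Stk36 and Odf2 lie in the axoneme, the tail fibres and the centriole. The 8 genes were named for their roles, by a rule that uses no measured value, but with earlier results of these data known. A promoter was taken as 1000 bp upstream to 500 bp downstream of any annotated transcription start site (TSS), and a gene was counted when a peak met this window by at least 1 bp.

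The peaks came from ChIP-seq, the sequencing of chromatin fragments that an antibody against a DNA-binding protein pulls down. Decapsulated testes of wild type mice gave 2 RFX2 ChIP samples and 2 inputs, which are chromatin sequenced without enrichment. The samples are numbered as experiments, and the series' design text gives 2 independent mice, after which the replicates are called mice here. All carried a mixed C57BL/6, 129/Sv and FVB/N background, and the labels give an age of postnatal day 29 to 30, whereas the study's text describes germ cells of younger animals. Peak lists hold no transcript levels, so the cell types in the chromatin could not be checked against markers, and a weak peak cannot be told apart from binding in few cells.

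The manchette is a transient skirt of microtubules that surrounds the nucleus of the elongating spermatid. It serves as a scaffold while the nucleus is shaped and as a track along which proteins travel to the growing tail, and the head-tail coupling apparatus then fixes the tail to the nucleus. RFX2 belongs to the Regulatory Factor X transcription factors, is active in spermatocytes and round spermatids, and binds the X-box, a pair of inverted half-sites that is frequent near genes of the cilium and flagellum.

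An RFX2 promoter peak was listed for 5 of the 8 genes in replicate 1 (Meig1, Lrguk, Ccdc42, Stk36 and Odf2), and 14% of all protein-coding genes had one there. In replicate 2 it was listed for 4 genes, the same without Ccdc42, against 11.3% of all genes. The 4 genes Meig1, Lrguk, Stk36 and Odf2 had a promoter peak in both replicates, against 9.05% of all genes. The combined list, a shorter set of peaks whose names point to reads of both mice, held promoter peaks of 3 genes (Meig1, Lrguk and Odf2), against 5.26% of all genes. Hook1, Rimbp3 and Spem1 had no promoter peak in any of the 3 lists, a state shared by 83.8% of all genes. A gene with more TSSs can have more promoter sequence, and the shares were not matched for this. Distinct TSSs ranged from 1 in Rimbp3 and Spem1 to 11 in Hook1 and 24 in Odf2. With 8 genes picked by hand, and with earlier results known, these shares are a description, and no test was made on them.

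**Figure D1:**
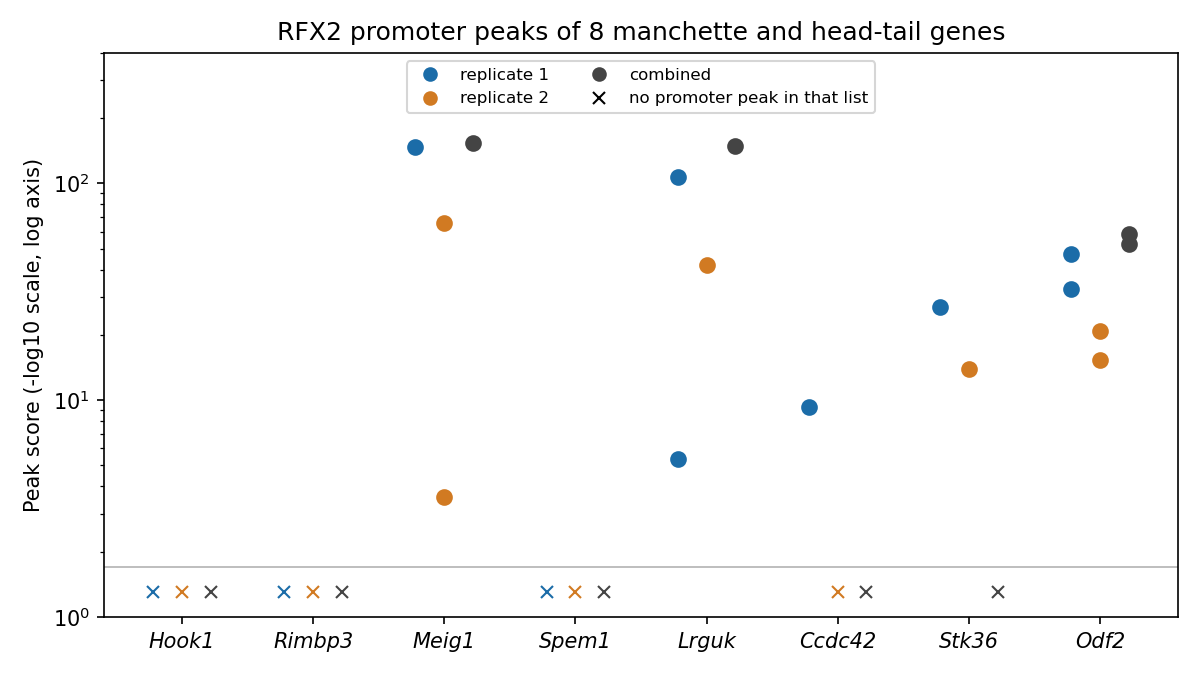
Score of each promoter peak (vertical axis, −log10 scale drawn on a log axis) for the 8 genes (horizontal axis) in replicate 1, replicate 2 and the combined list. Each circle is 1 peak and each cross marks a list without a promoter peak. The main peaks of Meig1 and Lrguk lie highest in every list, Odf2 has 2 peaks in every list, and Hook1, Rimbp3 and Spem1 have crosses alone.

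The sequences under the peaks of Meig1, Lrguk, Odf2 and Stk36 are shown first, to let each be set beside the X-box. The X-box was first searched as an inverted repeat of 14 bases, the 7 bases GTTGCCA followed by their reverse complement, within 100 bp of the summit, the position of highest signal, and up to 3 mismatches were allowed. None of the 4 promoter peaks of Meig1, Lrguk and Odf2 held it, whereas 58.9% of all 1003 combined promoter peaks did. After these sequences had been seen, a looser form was searched, the 6 bases GTTGCC and their reverse complement with 0 to 3 bases between them and at most 3 mismatches over the 12 half-site bases, on both strands since the pair is its own reverse complement. At least 1 promoter peak of each of the 4 genes with a peak in both mice held such a half-site pair, near the summit of the combined list in Meig1, Lrguk and Odf2 and near the centre of the replicate peaks in Stk36. Ccdc42 was not part of this count, and the first Odf2 peak, found in both mice, held none. No replicate peak of Lrguk, and neither replicate 2 peak of Meig1, held a pair within 100 bp of its centre. The count is by gene over the lists, whereas the shares that follow are by single peak or window. Such a pair was found at 91.8% of all combined promoter peaks (95% Wilson interval 90.0 to 93.4), in 18.0% of windows 1000 bp away from the same summits and in 29.5% of the 200 bp windows around the first coding TSS of all protein-coding genes. Around peak centres the share was 66.2% for replicate 1 promoter peaks met by replicate 2, and 41.0% for those not met. Each site is given here in 30 bases of the GRCm38 reference on the strand of the gene, with the pair and its spacer in capitals.
Meig1: gtcacggcGTTGCTAGGAGACgcgccggtt
Lrguk: tgacgtcaGTCTCCTAGGCAACgcgtataa
Odf2: aggagacaGTTGCCCAGGCACTgtcccgaa
Stk36: ctgacgccGTTTCTAGGCAACtgaagactc

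The sites differed in spacing and in which half-site was intact. Counted from 1 over the 12 half-site bases with the spacer left out, Lrguk (chr6:34029430-34029443, plus strand) departed at T3C and G4T in the first half-site and kept the second whole. Stk36 (chr1:74601459-74601471, plus strand) likewise kept the second half-site whole and departed at G4T and C6T. Odf2 (chr2:29890460-29890473, plus strand) kept the first half-site whole and departed at A11C and C12T. Meig1 (chr2:3419080-3419092, minus strand) had 3 departures, C6T, C9A and A10G, and no whole half-site. Among these 4 genes, Lrguk, Stk36 and Odf2 had at most 2 departures. Such a pair was found in 64.1% of combined promoter peaks and in 5.09% of all TSS windows. Stk36 has no combined peak. Around the centres of replicate 1 promoter peaks met by replicate 2, the share was 38.9%.

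A spacer of 1 base separated the half-sites in Meig1 and Stk36, and a spacer of 2 bases did so in Lrguk and Odf2. The 14-base repeat has a spacer of 2 bases, so the 13-base sites could not line up with it. Over all combined promoter peaks, 76.4% held a pair with a spacer of 2 and 30.8% one with a spacer of 1, and a window could hold both. A spacer of 1 was found at 19.8% of the combined peaks outside promoters and at 9.35% of all TSS windows.

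Meig1, which encodes a small protein needed to bring its partners to the manchette, had the highest score of the 8 genes. The gene lies on the minus strand at chr2:3409043-3422648. Its score was 148 in replicate 1 and 66.0 in replicate 2, on a −log10 scale given by the peak caller, which placed it at rank 299 of 39825 peaks and rank 333 of 21274 peaks. In the combined list its peak at chr2:3418459-3419850 had a −log10 p of 154, a fold enrichment of 16.45 over local background and rank 475 of 2726. These ranks fell in the top 0.751%, 1.57% and 17.4% of the 3 lists, and among the 1003 combined promoter peaks it was number 277.

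The Meig1 peak did not lie at the first TSS of the gene. It covered a cluster of 4 TSSs, between 3418581 and 3419129, and its summit at 3419086 lay 43 bp downstream of the most upstream of them, in a 5′ UTR exon, and 45 bp upstream of the next. The distance from the first coding TSS of Meig1 to the summit was 3562 bp, and no promoter peak was listed at that first TSS in any list. The half-site pair shown above was centred on the summit. Replicate 2 had, beside the main peak, a peak of score 3.58 that met the same window, near the end of that list at rank 19169. Replicate 1 held a further peak of score 6.16 in the intron between the TSS groups, at chr2:3420152-3420864.

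Lrguk, which encodes a leucine-rich repeat protein with a guanylate kinase domain found at the manchette and the tail basal body, had a peak across its first TSS. Its score was 107.5 in replicate 1 (rank 585) and 42.0 in replicate 2 (rank 663). In the combined list the peak at chr6:34028803-34029888 had a −log10 p of 148, a fold enrichment of 19.7 and rank 508. The summit lay 6 bp upstream of the TSS at 34029448, outside the transcribed region, and the half-site pair lay 6 bp upstream of the summit. Lrguk had a lower score than Meig1 in all 3 lists and a higher fold enrichment in the combined list. The centres of its replicate peaks lay 118 bp and 125 bp upstream of the TSS, so that the pair was outside the 100 bp searched around them. Replicate 1 alone held intronic peaks further inside Lrguk, of scores 4.47 and 6.29.

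The upstream sequence of Lrguk up to the base before its TSS, chr6:34029376-34029447 on the plus strand of GRCm38, is given with the pair in capitals to show how close it lies to the start of transcription.
Lrguk upstream: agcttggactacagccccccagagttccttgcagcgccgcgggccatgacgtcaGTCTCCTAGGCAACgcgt
A 14-base repeat with 3 mismatches was present further upstream, at chr6:34028555-34028568, which is 886 bp before the TSS. It met the edge of a separate replicate 1 peak of score 5.34 (rank 18530), which neither replicate 2 nor the combined list held. Stk36 and Odf2 also had such a repeat in a promoter window, 480 bp downstream and 118 bp upstream of a TSS, with no peak of any list on it. In the window around the first coding TSS alone, 8.97% of all genes had one, and of the 8 members Lrguk alone did.

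Odf2, which encodes a protein of the outer dense fibres of the sperm tail and of the appendages of the mother centriole, had 2 separate promoter peaks in each list. Only 15 of the 1153 genes with a combined promoter peak (1.3%) had 2 or more. A peak at any TSS counted here, and Odf2 has 24 distinct TSSs. Its windows therefore cover more sequence than that of a gene with a single TSS. The first peak, chr2:29889336-29889808, had a −log10 p of 58.5, a fold enrichment of 6.67 and rank 2034. The second, chr2:29890266-29890739, had a −log10 p of 52.7, a fold enrichment of 7.01 and rank 2276. Their summits were 835 bp apart, 99 bp and 84 bp upstream of the TSSs at 29889720 and 29890540.

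The order of the Odf2 peaks differed between the mice. In replicate 1 the first peak scored 47.35 (rank 1883) and the second 32.7 (rank 2802). In replicate 2 the first scored 15.3 (rank 2295) and the second 21.0 (rank 1648). The 2 mice therefore gave no common order of the Odf2 promoters. Both summits lay in introns of Odf2 transcripts that start further upstream. Replicate 1 alone held another peak inside the gene, of score 9.32 at chr2:29929881-29930496.

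The second Odf2 peak held the half-site pair, 10 bp downstream of its summit, and the first peak held none within 100 bp of its summit. The sequence around the second summit, chr2:29890406-29890526 on the plus strand of GRCm38, is given with the pair in capitals.
Odf2 second peak: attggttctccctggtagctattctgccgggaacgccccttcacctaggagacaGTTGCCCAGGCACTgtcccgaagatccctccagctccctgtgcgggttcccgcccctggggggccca
The 6 bases GTCTCC, or their reverse complement, were present within 100 bp of all 4 member summits in the combined list. In Meig1 they formed the second half-site and in Lrguk the first. In the second Odf2 peak they stood just before the pair, and in the first Odf2 peak they lay 7 bp from the summit. Over all combined promoter peaks 25.2% held these bases, against 16.3% of all TSS windows, and this word was chosen after the sequences were seen.

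**Figure D2:**
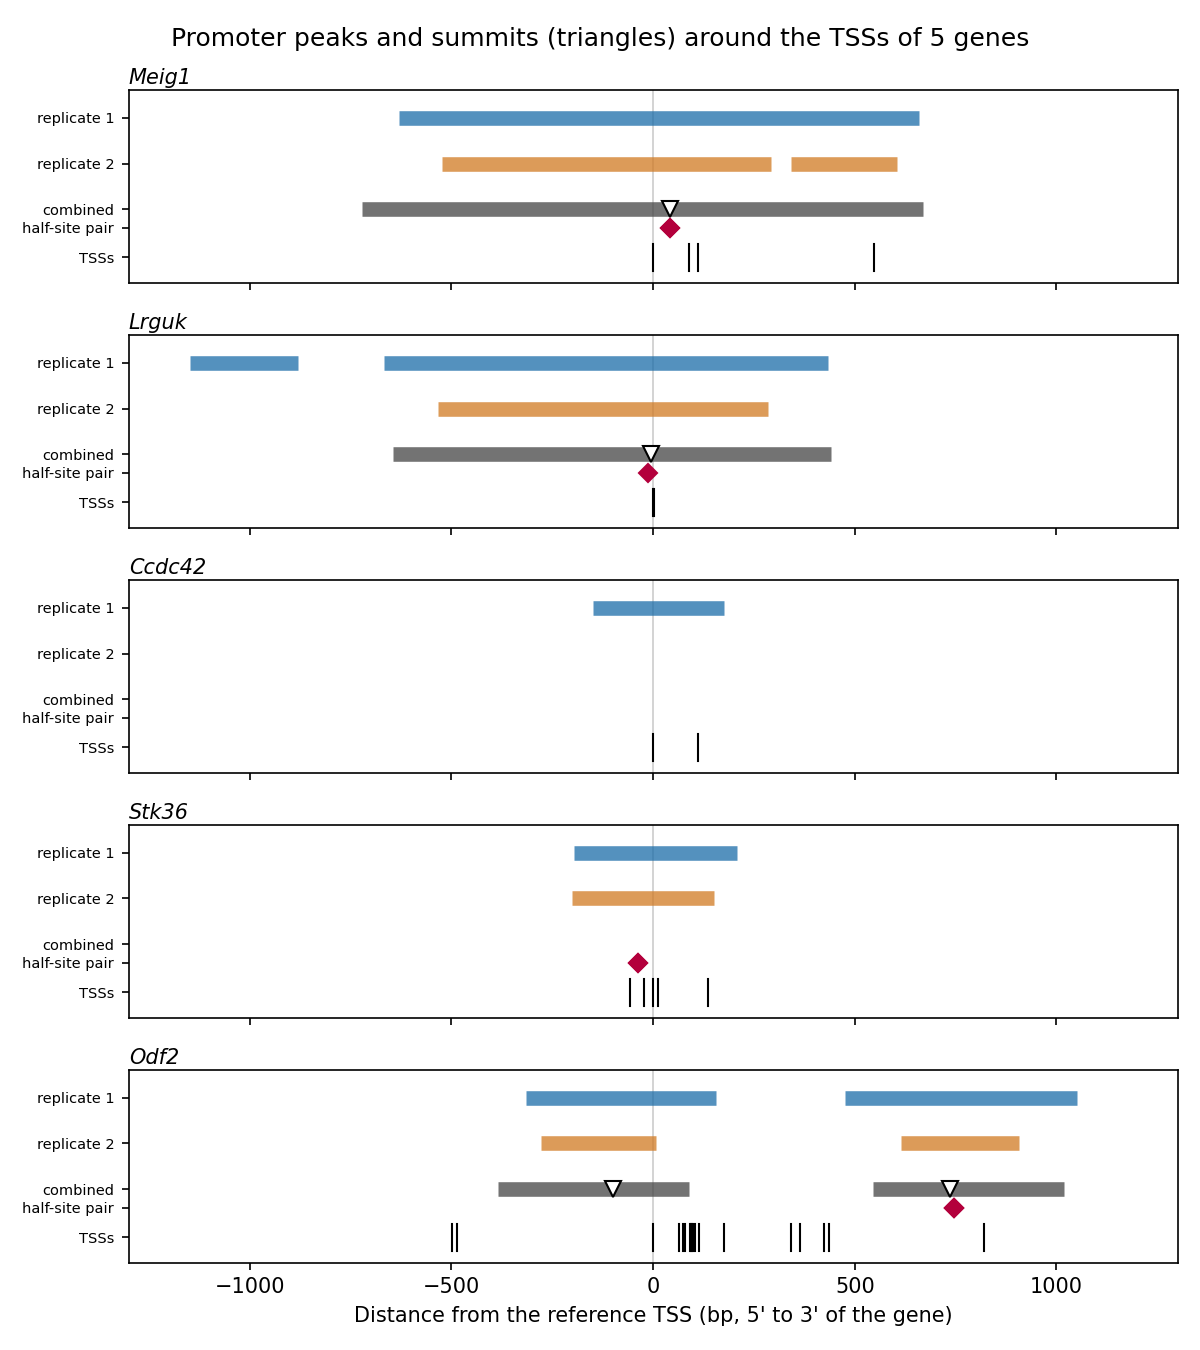
Promoter peaks of the 5 genes that have one, as bars in each list, with summits of the combined list as triangles, the half-site pairs of Meig1, Lrguk, Stk36 and Odf2 as diamonds and annotated TSSs as ticks. The horizontal axis is the distance in bp from the own TSS nearest to the highest-scoring peak, in the direction of transcription. The pair lies within 10 bp of the summit in Meig1, Lrguk and the second Odf2 peak, and the first Odf2 peak has none.

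Stk36, the mouse homologue of the kinase Fused, which is needed for the central pair of motile axonemes, had a promoter peak in both mice that the combined list did not hold. Replicate 1 placed it at chr1:74601306-74601711 with a score of 26.9 (rank 3359), and replicate 2 at chr1:74601303-74601655 with a score of 13.9 (rank 2579). The 2 peaks started 3 bp apart and covered the first TSSs of the gene. Of the replicate 1 peaks within 500 ranks of Stk36, 87.8% were met by replicate 2 and 14.7% by the combined list, so that most replicate 1 peaks of this rank were shared by the mice and missing from the combined list. Of the replicate 2 peaks within 500 ranks of it, 98.7% were met by replicate 1 and 44.6% by the combined list.

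The Stk36 peak could not be assigned to 1 gene. Rnf25, which encodes a ubiquitin ligase and is read in the opposite direction from a TSS at 74601397, had the same peak in its promoter. The centre of the peak lay 111 bp upstream of that TSS in replicate 1 and 82 bp upstream in replicate 2, and within 5 bp of a Stk36 TSS in both. The half-site pair lay in the 5′ UTR of the Stk36 transcript that starts at 74601445, 43 bp before the peak centre in replicate 1 and 14 bp in replicate 2. Centres were used because the replicate lists give no summit.

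Ccdc42, which encodes a coiled-coil protein of the head-tail coupling apparatus and the perinuclear ring, had a promoter peak in replicate 1 alone. The peak at chr11:68586871-68587197 had a score of 9.31 (rank 8789) and covered the TSSs at 68587021 and 68587133. Of the replicate 1 peaks within 500 ranks of it, 30.2% were met by replicate 2, and the nearest replicate 2 peak to a Ccdc42 TSS was 30.9 kb away. The antisense transcript Ccdc42os, whose TSS at 68586957 lies 64 bp from that of Ccdc42, shared the peak.

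Hook1, a coiled-coil linker of the manchette to the nucleus and the gene disrupted in the azh mouse with its abnormal sperm heads, had no peak at its first TSSs. The nearest peak to any of its 11 TSSs was an intronic one in replicate 1 at chr4:95970598-95970757, 3.23 kb from a TSS, with a score of 4.47, the median of that list. In replicate 2 it was a peak of score 5.59 at chr4:96024679-96024846, near the far end of the gene. Replicate 1 held another peak of score 3.64 near that end, at chr4:96025214-96025443, and the peaks of the 2 mice did not meet. The nearest combined peak was 915 kb away, and 85.7% of all genes had one closer. In the longer replicate lists 23.0% of all genes had a peak closer than Hook1 in replicate 1 and 18.2% in replicate 2.

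Rimbp3, whose product sits on the manchette and binds Hook1 protein, had the most distant replicate peaks of the 3 genes without a promoter peak. They lay 36.4 kb from its single TSS in replicate 1 (score 2.85) and 25.9 kb in replicate 2 (score 4.31). The median distance over all protein-coding genes was 16.8 kb in replicate 1 and 28.4 kb in replicate 2. The gene therefore stood further from a peak than the median gene in 1 mouse and nearer in the other.

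Spem1 is needed for the removal of cytoplasm from the sperm neck. A weak peak was listed in both mice about 7 kb upstream of its single TSS. In replicate 1 this peak met the promoter window of another protein-coding gene, so it could not be assigned to Spem1. The peak lay at chr11:69828934-69829133 with a score of 4.96 in replicate 1 and at chr11:69828964-69829176 with a score of 4.68 in replicate 2. The 2 intervals overlapped. Their distances from the TSS were 6.75 kb and 6.78 kb, outside the promoter window of Spem1, and the nearest combined peak was 199 kb away. None of these 3 genes had the 14-base repeat in its promoter window. A half-site pair with 3 mismatches was found in each of the windows around their first coding TSS, as in 84.2% of all genes, and the best match lay at −398 bp from that TSS in Hook1, 97 bp in Rimbp3 and 69 bp in Spem1.

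Replicate 1 gave the higher score at each of the 5 member promoter peaks found in both mice. The ratio of the replicate 1 score to the replicate 2 score was 2.24 for Meig1, 2.56 for Lrguk, 1.94 for Stk36, 3.09 for the first Odf2 peak and 1.56 for the second. Over all 1777 replicate 1 promoter peaks met by replicate 2 the median ratio was 1.95, with quartiles of 1.36 and 2.65. All members but the first Odf2 peak lay between these quartiles. A −log10 score grows with the number of reads, which is unknown for these lists, so scores were compared within a list or as this ratio.

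**Figure D3:**
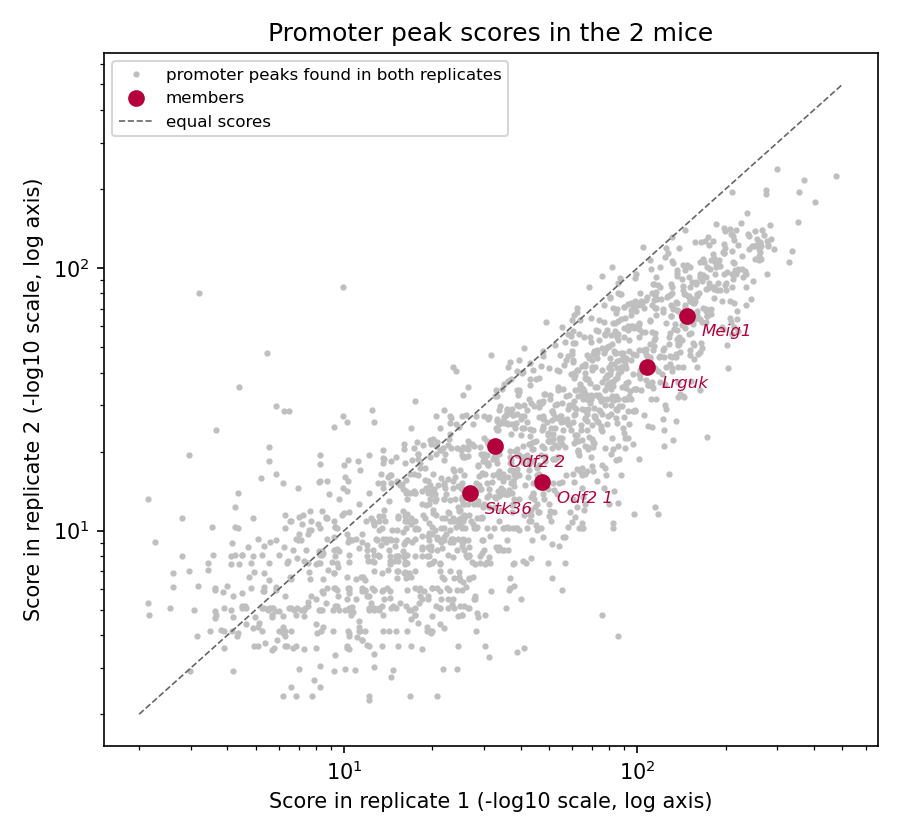
Score in replicate 1 (horizontal, log axis) against score in replicate 2 (vertical, log axis) for 1777 promoter peaks found in both mice (grey), with the 5 member peaks in red. The dashed line marks equal scores. All 5 member peaks lie below it, within the cloud of the other promoter peaks.

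Meig1 and Lrguk stood above the median combined promoter peak, and both Odf2 peaks stood below it. The median −log10 p over the 1003 combined promoter peaks was 103, and the median fold enrichment was 15.0. The Odf2 peaks ranked 825 and 888 of the 1003. Directly above Meig1 in rank stood the promoter peak of Coq4 and Trub2 (−log10 p of 154.1), and directly below, with the same −log10 p as Meig1, that of Efl1 and Saxo2. Lrguk had the same −log10 p as the peak of Per1 above it and was followed by that of Smyd3 (147.7). The first Odf2 peak lay between those of Ly6g5c and Slc43a2, and the second between those of Tmem216 (52.9) and Krt73 (52.6).

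To place the 8 genes among others, 38 further genes were looked up. They were genes of the same structures, and partners, paralogs or like-named genes of the members. Of these, 10 (26.3%) had a combined promoter peak, against 5.26% of all genes. In both replicates 14 (36.8%) had one, against 9.05%. In replicate 1 it was 17 (44.7%) against 14%, and in replicate 2 it was 16 (42.1%) against 11.3%. Like the members, the further genes were chosen with earlier results known, and no test was made. The 10 with a combined promoter peak included 6 of 17 manchette genes and 2 of 9 head-tail coupling genes. They included 0 of 10 genes listed as partners, paralogs or like-named genes of members other than Meig1. Partners of the Meig1 protein were a separate group and are not in these counts. The median −log10 p of the highest promoter peak was 173 over these 10 genes, 148 over the 3 members and 105.5 over all 1153 genes with one.

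The highest of these peaks belonged to manchette genes. Ccdc181, which encodes a microtubule-binding protein, had a −log10 p of 328 and rank 25, and Katnal2, a katanin-like ATPase, had 320 and rank 33. Iqcg and Spef2, needed for the sperm tail, had 281 and 206, and Sun3, a nuclear envelope anchor of the manchette, had 153, next to Meig1. Katnal1, another of the katanin family, which severs microtubules, had 108. The Iqcg peak also met the promoter of Rpl35a, and the Sun3 peak that of Gm11992.

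Spag16, a central pair protein and partner of the Meig1 protein, had a −log10 p of 192 and rank 276, above Meig1. Among head-tail coupling genes, Spata6 had 104 and Tsga10 had 79.9, the latter shared with the antisense gene Gm26805. Odf1, Cfap73 and Odf2l had, like Stk36, promoter peaks in both mice and none in the combined list.

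**Figure D4:**
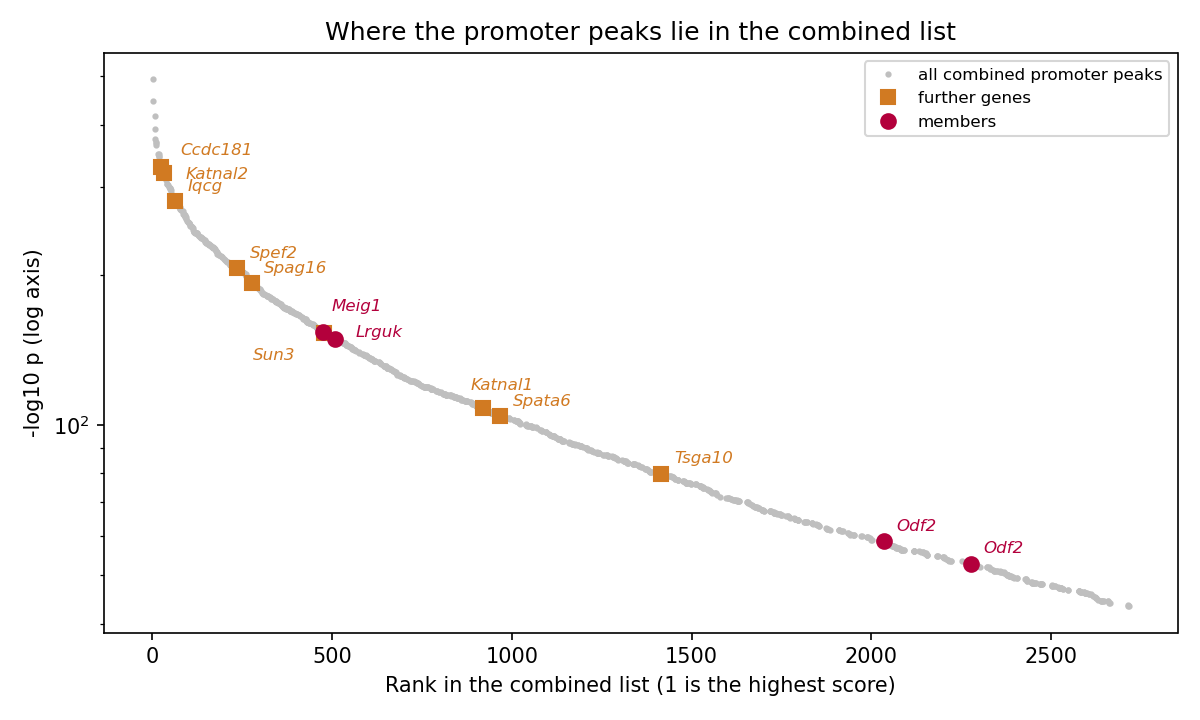
−log10 p (vertical, log axis) against rank in the combined list (horizontal) for all 1003 combined promoter peaks (grey), with the members in red and 9 of the further genes in orange. Meig1 and Lrguk lie side by side at ranks 475 and 508 next to Sun3, and the Odf2 peaks lie at ranks 2034 and 2276.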

How the data were processed

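The authors immunoprecipitated WT testis chromatin with antibody sc-10657 and sequenced 1 input per replicate. Per the labels, the tools were CASAVA 1.8.2, Bowtie 0.12.7 and MACS2 2.0.10.20130520 on GRCm38. Per the study's methods, reads with several locations were discarded, and human reads were removed from a second run of replicate 2. They describe default and relaxed calls per replicate and a set of peaks kept as reproducible by the irreproducible discovery rate between replicates. The combined list is about as long as that set, but the sources used here do not say that it is that set, nor which call was deposited per replicate. Its peak names begin with "all", and overlap between it and a replicate is not independent replication. The deposited replicate lists give a −log10 value, of p or q. The deposited combined list gives a score (the whole part of 10 times −log10 p), the summit, −log10 p, −log10 q and a fold enrichment, the ratio of signal to local background. Depth is unknown. Intervals cover counting error only.

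TSSs came from GENCODE mouse release M21 and sequence from GRCm38.p6, whose primary chromosomes have the coordinates of the lists. Gene models can differ from those the authors used. The overlaps were checked with bedtools 2.31.1, and overlaps and motif searches were tested on made data. Ranks are by score, with the first rank given to ties. Where a gene had several peaks, the highest-scoring one entered its medians. No test was run, since each list holds 1 call per site. Replicates are the 2 experiments numbered in the titles. The design text gives 2 independent mice, and whether each experiment held chromatin of 1 animal is not given in the labels.

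The members and the further genes were chosen with earlier results of these data known. Named genes were all members, genes sharing a member's peak, the neighbours in rank of each member's combined promoter peak, the further genes with a combined promoter peak and at most 4 without. Some genes and 1 site that these rules cover are not reported here. The alternatives were another window, the 5′-most coding TSS, the summit inside the window, the top 50% of each list, other mismatch limits and search windows, and each replicate left out.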

Additional observations from a re-analysis of the deposited data

How the results depend on the processing

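Meig1 was lost from every count when the 5′-most coding TSS alone was used (2 genes in the combined list, 4 in replicate 1, 3 in replicate 2), and Odf2 was lost from the combined list in its top 50% by score (2 genes). All other planned windows left the members' counts as they were. Leaving out a replicate gave 4 to 5 genes with a promoter peak in the remaining one. For the further genes the combined count was 8 to 10. The share of all genes with a combined promoter peak was 4.48% with the 5′-most TSS and 3.42% in the top 50%. With at most 4 mismatches the 14-base repeat lay near a summit in 2 genes, Lrguk and Odf2, and 78.1% of combined promoter peaks then held it. The half-site pair, added after the data were seen, lay near one in 3. The count for the 14-base repeat was 0 with at most 2 mismatches, in the whole peak and around the peak centre, as in the search reported.

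The median position of the combined summits was −6 bp from the nearest own TSS over the 3 genes, −103 bp for peak centres and 400 bp from the 5′-most TSS. Replicate peak centres gave −116 to −80 bp. No paired analysis was possible because the result comes from no test. Lists without read counts limit what a missing peak means: the lowest score was 2.03 in replicate 1, 2.08 in replicate 2 and 43.2 in the combined list, and a peak under these is not shown to be absent.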

Other observations

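Beside the half-site pair, the Lrguk promoter held the 8 bases TGACGTCA, the palindromic cyclic AMP response element, in the 8 bases directly before it. It was the 1 combined member summit of 4 with this word within 100 bp. The word was found at 3.99% of all combined promoter peaks (95% Wilson interval 2.94 to 5.38) and at 2.03% of the TSS windows of all protein-coding genes, and it was chosen after the sequence was seen.

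Among the 10 further genes with a combined promoter peak, all but Tsga10 had a half-site pair within 100 bp of the summit. Ccdc181, Katnal1 and Spef2 had 1 departure from the half-sites, and Spef2 had a spacer of 3 bases. The 14-base repeat was present in 7 of these 10 genes and in 0 of the 3 members with such a peak. Over all combined promoter peaks, 58.9% held the repeat and 91.8% a half-site pair.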
